A study of Mus musculus with 20 samples.

Results

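The cytosolic ribosomal proteins were followed across 4 sorted cell groups of the mouse olfactory mucosa, the tissue of the nasal cavity that holds the olfactory sensory neurons. Genes were taken by symbol, as the array probe sets named for the large (Rpl) or small (Rps) cytosolic subunit or the ribosomal stalk (Rplp), with Rpsa and without the Rps6 kinases. Cytosolic ribosomal proteins with other kinds of symbol, such as Fau and Rpl36al, are outside the rule and are given at the end. This gave 63 genes of 19505 measured gene symbols, each with 1 probe set. They were 32 large-subunit proteins, 22 small-subunit proteins, 2 stalk proteins, and 7 paralogs or extra copies (Rpl3l, Rpl7l1, Rpl10l, Rpl22l1, Rpl39l, Rps4l and Rps27l). RefSeq lists Rps4l as a transcribed pseudogene. Rpl32l, a copy of Rpl32 by its symbol, stayed among the 32 large-subunit genes. Rplp2, Rpl10 and Rps27 were not analysed here.

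The mice, of both sexes and 7 to 12 weeks old, carried S100a5-tauGFP, a reporter that marks cells in which the S100a5 promoter is active. S100a5 encodes a small calcium sensor, and olfactory neurons make more of it after odor-driven activity. Animals sat singly for 40 h in chambers flushed with clean air at 3.1 L/min, and from 26 h onward each received a pulse of 10 s every 20 min. The pulses carried an artificial cigarette smoke odor (odor) or filtered air alone (vehicle). The series' design text names bourgeonal as the odorant, and the sample labels were followed. Tissue of 3 mice made a pool, and each pool was dissociated and sorted into GFP+ and GFP- cells, so the fractions of a pool come from the same animals. The groups were odor GFP+, odor GFP-, vehicle GFP+ and vehicle GFP-, with 5 arrays each and 30 mice in all. Every value below is a log2 signal or a difference of log2 signals. A log2 change compares the fractions within pools as GFP+ minus GFP-, averaged over 5 pools, so a negative value means a lower signal in GFP+ cells. Calls are by limma at an adjusted p (Benjamini-Hochberg over 22206 gene probe sets) under 0.05.

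A ribosome is built of a small subunit, which reads the messenger RNA, and a large subunit, which joins the amino acids. Each cytosolic ribosomal protein is made in step with the others, and most of their mRNAs begin with a run of pyrimidines (the 5' terminal oligopyrimidine tract) through which the mTOR pathway sets their translation. Ribosomal protein mRNAs are abundant in dividing and growing cells, and the olfactory mucosa holds such cells beside its mature neurons, since its neurons are renewed throughout life.

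S100a5 itself had log2 signals of 16.66 to 17.40 in odor GFP+ and 14.15 to 15.55 in odor GFP- arrays. It had 16.25 to 17.08 in vehicle GFP+ and 14.53 to 16.07 in vehicle GFP- arrays. GFP+ was the higher fraction in every pool. The fractions lay closest in vehicle pool 1 (16.36 in GFP+ against 16.07 in GFP-) and vehicle pool 4 (16.25 against 15.82). Omp, the standard marker of mature olfactory neurons, had 18.29 to 19.65 in GFP+ and 18.10 to 19.60 in GFP- arrays, so both fractions carried mature neuron RNA. Replicate 5 stood apart in all 4 groups: the median over gene probe sets was 7.03 to 7.46 there, against 6.06 to 6.39 on the other 16 arrays. The mean correlation of an array with the rest of its group ran from 0.895 (vehicle GFP- replicate 1) to 0.983. The table holds no detection calls. Mean signals of the 63 genes ran from 3.94 to 16.26, and Rpl3l and Rpl39l lay below the lowest median signal of the background probe sets (5.14), so nothing is read from their values.

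Part of the ribosomal protein genes fell in GFP+ relative to GFP- cells, and no member was called higher. In odor pools 5 of 63 genes fell, which is 7.94% of them, against 5.82% of all probe sets called lower. None rose, against 2.07% of all probe sets, and 0 were higher at an unadjusted p under 0.05. In vehicle pools 23 of 63 fell (36.5%, against 6.86% of all probe sets) and none rose, against 2.26%, again with 0 higher at an unadjusted p under 0.05. The 5 genes called in odor pools, Rplp0, Rps7, Rps16, Rps20 and Rps28, were also called in vehicle pools. Such overlap was common: of 1292 probe sets called lower in odor pools, 1179 were called lower in both. That is 5.31% of all probe sets, against 7.94% of members, and the 2 sorts share the spread of 1 fit.

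The count of calls in odor pools was near that of all probe sets, but the members' changes lay to one side of zero. The median log2 change was -0.446 over the 63 genes and 0.08 over all probe sets in odor pools, and -0.839 and 0.09 in vehicle pools. The vehicle median corresponds to 55.9% of the GFP- level. In odor pools 55 of 63 genes were below zero (39.2% of all probe sets), and in vehicle pools 57 of 63 (39.5%). Lower in every one of the 5 odor pools were 24 of 63 genes (38.1%, against 10.8% of all probe sets), and in every one of the 5 vehicle pools 29 of 63 (46.0%, against 8.55%). The plot of all members shows each gene's change in both conditions.

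**Figure D1:**
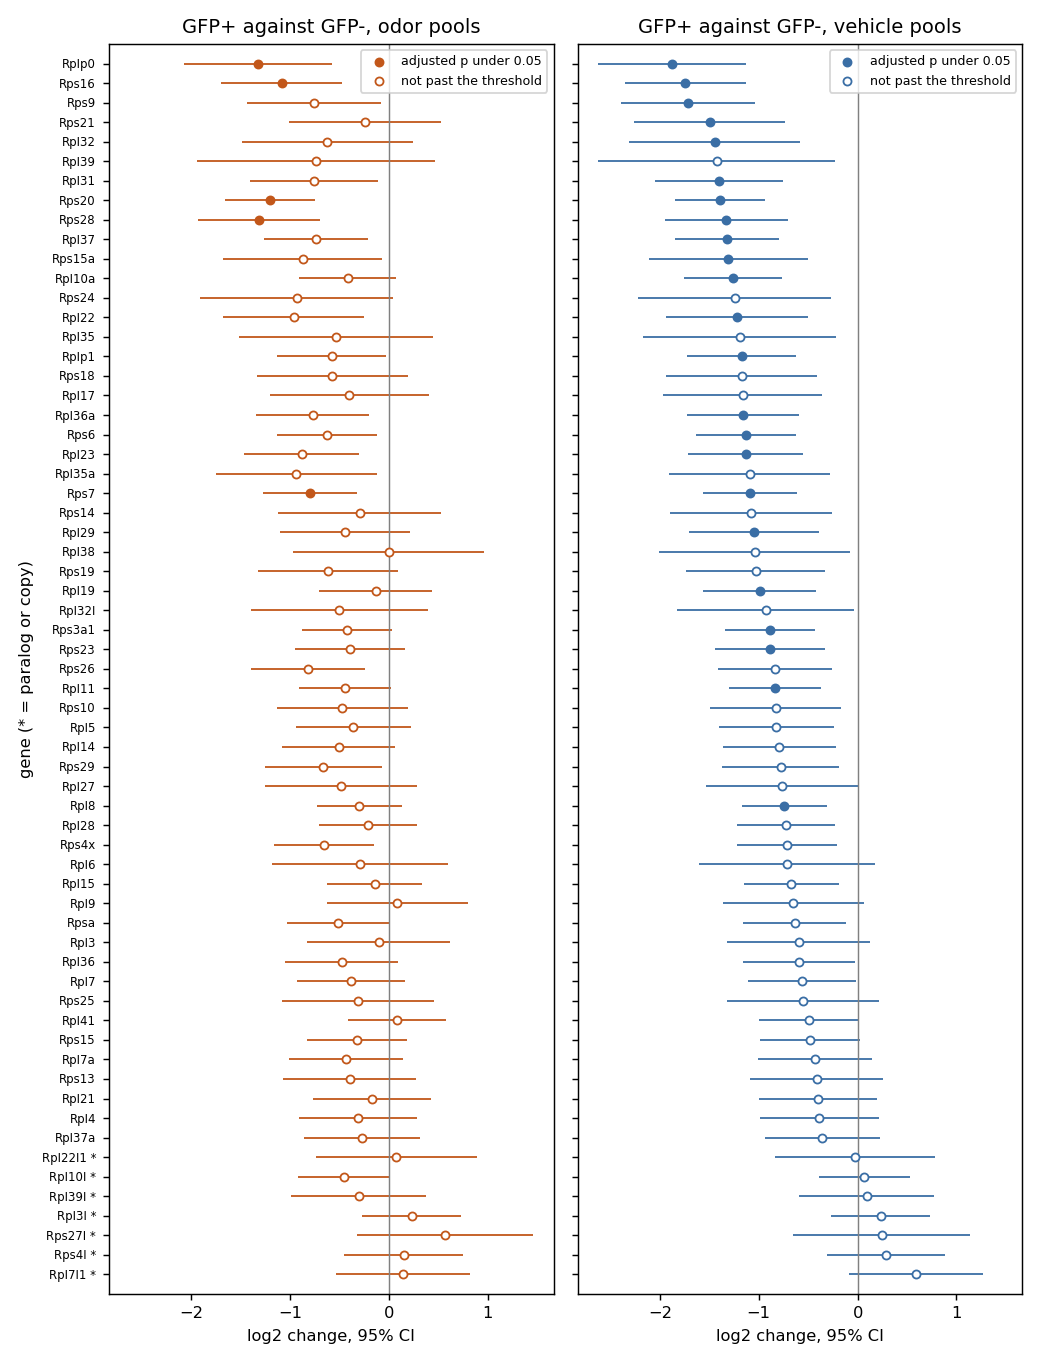
Log2 change GFP+ minus GFP- (horizontal axis, mean of 5 pools with its 95% confidence interval from limma) for each of the 63 genes (vertical axis, ordered by the change in vehicle pools), in odor pools on the left and vehicle pools on the right. Filled points passed an adjusted p of 0.05: 5 genes in odor pools and 23 in vehicle pools, all to the left of zero, while the paralogs and copies marked with an asterisk sit at the bottom around zero.

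The difference recurred pool by pool, with an uneven size. The median difference of the 63 genes was -0.23, -0.44, -0.45, -0.52 and -0.67 in odor pools 1 to 5 (mean -0.463 ± 0.160, SD, n = 5), and -1.76, -0.43, -1.34, -0.86 and -0.30 in vehicle pools 1 to 5 (mean -0.938 ± 0.616, SD, n = 5). All 10 pools were below zero, and the vehicle and odor pools overlapped, with vehicle pools 1, 3 and 4 below every odor pool. On single arrays the median signal of the 63 genes was 11.81, 11.93, 11.29, 11.32 and 12.30 in odor GFP+ arrays, against 12.17, 12.59, 11.55, 12.00 and 13.02 in odor GFP- arrays. In vehicle pools it was 11.33, 11.75, 11.24, 11.32 and 12.57 in GFP+ arrays, against 13.42, 12.11, 12.73, 12.08 and 13.08 in GFP- arrays. The GFP+ ranges of both conditions lay close together, and the highest GFP- values came from vehicle pools 1 and 5 and odor pool 5. Fewer cells of a type and less RNA per cell cannot be told apart in such bulk samples.

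**Figure D2:**
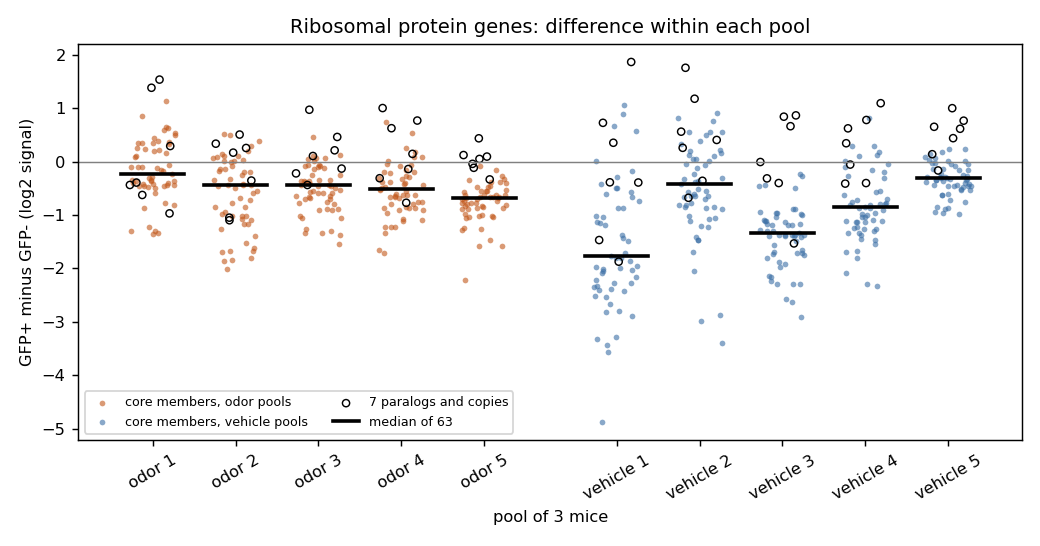
Difference GFP+ minus GFP- in log2 signal (vertical axis) for every ribosomal protein gene in each of the 10 pools (horizontal axis); filled points are the 56 genes other than paralogs and copies, open circles the 7 paralogs and copies, and bars the median of 63. All 10 medians lie below zero, from -0.23 to -0.67 in odor pools and from -0.30 to -1.76 in vehicle pools.

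**Figure D3:**
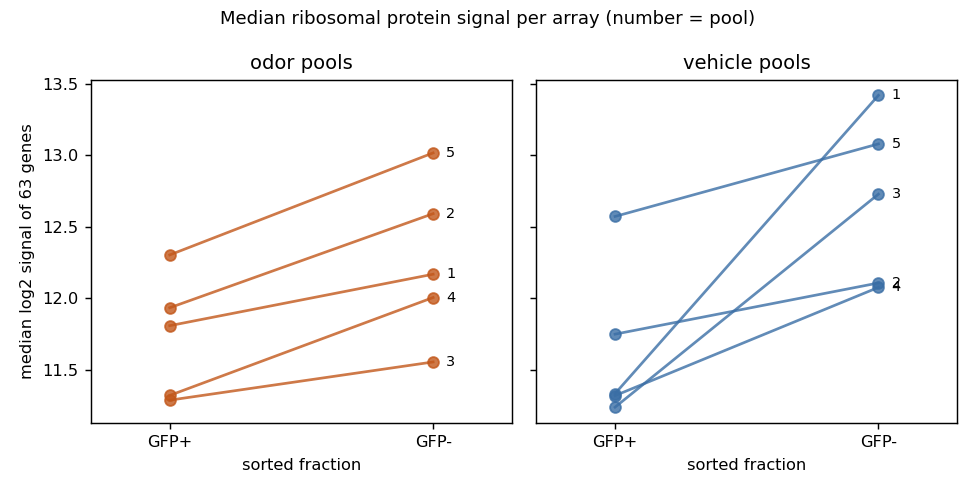
Median log2 signal of the 63 genes on each array (vertical axis), with the GFP+ and GFP- fractions of a pool joined by a line, for odor pools on the left and vehicle pools on the right. Every line runs upward to GFP-, and vehicle pool 1 has the steepest, with 11.33 in GFP+ and 13.42 in GFP- cells.

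The 2 counts depend on a few pools and on the pairing. Without the pairing of fractions by pool, 0 of 63 genes fell in odor pools (3.8% of all probe sets) and 5 in vehicle pools (4.41%). The odor count was 1 without odor pool 4 (4.63% of all probe sets) or odor pool 5 (4.23%), 2 without odor pool 3 (4.69%), 3 without odor pool 2 (5.26%) and 8 without vehicle pool 1 (6.75%), which enters through the shared spread; the vehicle count was 13 without vehicle pool 3 (5.65%) and 14 without vehicle pool 4 (5.67%).

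Markers of several other cell types moved with the sort. All 13 measured neutrophil genes fell in both conditions. Sums given here are the log2 of a list's summed linear signal, in which the brightest genes weigh most. For neutrophil genes the sum was 9.62 to 10.0 in odor GFP+ and 18.9 to 20.1 in odor GFP- arrays. It was 9.32 to 10.2 in vehicle GFP+ and 19.2 to 20.6 in vehicle GFP- arrays. Of 11 genes of other white blood cells 10 fell in odor pools and 11 in vehicle pools, with sums of 9.28 to 10.3 in odor GFP+, 15.4 to 16.3 in odor GFP-, 9.58 to 10.3 in vehicle GFP+ and 16.3 to 17.1 in vehicle GFP- arrays. Of 9 genes of globose basal and cycling cells, the dividing progenitors of the epithelium, 5 fell in odor pools and 6 in vehicle pools, and their sums overlapped, at 12.2 to 14.1 in odor GFP+, 12.8 to 15.1 in odor GFP-, 11.7 to 14.3 in vehicle GFP+ and 12.5 to 15.2 in vehicle GFP- arrays. Of 13 genes of immature sensory neurons 5 fell in each condition, and 9 in odor pools and 8 in vehicle pools were below zero. Their sums overlapped, at 18.1 to 18.8 in both odor fractions. In vehicle arrays the sums were 18.0 to 19.1 in GFP+ and 17.0 to 18.8 in GFP-. None of 14 genes of mature sensory neurons was called. Of these, 2 in odor pools and 3 in vehicle pools were higher at an unadjusted p under 0.05 by limma. Also lower were 6 of 7 genes of microvillar and tuft-like cells and both measured erythroid genes in each condition. Of 9 sustentacular genes 2 fell in odor pools and 3 in vehicle pools, and of 4 Bowman gland genes 2 fell in each. Other lists had at most 1 gene called. Of 6 horizontal basal cell genes 0 were called in either condition, with medians of 0.14 in odor pools and 0.04 in vehicle pools. Of 5 endothelial and stromal genes 1 fell in each condition, with medians of -0.24 in odor pools and -0.57 in vehicle pools. Of 4 ensheathing glia genes 0 fell in odor pools and 1 in vehicle pools, with medians of -0.09 and -0.21.

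Mature neuron markers differed between the fractions by pool. Their median difference was 0.38, 0.73, 0.20, 0.38 and 0.17 in odor pools 1 to 5, and 2.06, -0.37, 0.84, -0.11 and 0.26 in vehicle pools 1 to 5. The most positive vehicle pools, 1 and 3, were those with the most negative ribosomal protein medians (-1.76 and -1.34). Vehicle pools 2, 4 and 5 had ribosomal protein medians of -0.43, -0.86 and -0.30. Odor pools did not show this order. Odor pool 5, with the smallest marker difference (0.17), had the most negative ribosomal protein median (-0.67), and odor pool 2, with the largest (0.73), was at -0.44. Other marker lists also varied between vehicle pools 1 to 5. Immature neuron markers were at 1.93, -1.54, -0.35, -1.43 and -0.51. Sustentacular markers were at -0.20, -1.78, -1.82, -0.49 and -0.57, and neutrophil markers at -8.18, -7.68, -9.14, -8.61 and -9.11. Omp was at 18.32 on vehicle GFP- replicate 1, against 19.20 to 19.60 on vehicle GFP- replicates 2 to 4 and 18.10 on replicate 5. The part of all these cell markers in the ribosomal protein result was not tested.

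Promoter sequence was read for the members because they moved together and because their pyrimidine tract is known to lie at the transcription start. RefSeq promoter windows (GRCm38.p6, 250 bases before to 50 after the annotated start) were matched to 50 of the 63 genes. A run of at least 8 pyrimidines (C or T, coding strand) within 50 bases on either side of the start was present in 41 of 50 members (82%), against 39.3% of 27025 genes in the table and 39.2% of 17492 protein-coding genes. Members called in vehicle pools had it in 14 of 18 cases, and members other than paralogs and copies that were not called in 23 of 26. The stretches of 60 bases before to 20 after the start are shown for 5 genes called in vehicle pools, from the stalk and both subunits, to show where the run lies. They are Rplp0 at chr5:115559407-115559486 (plus strand), Rps6 at chr4:86857348-86857427 (minus strand), Rps9 at chr7:3703981-3704060 (plus strand), Rps16 at chr7:28350629-28350708 (plus strand) and Rpl31 at chr1:39367791-39367870 (plus strand). Among called genes not shown, Rpl10a, Rpl37, Rps7 and Rps28 had longest runs of 5, 6, 8 and 5 bases in the same stretch. Capitals mark the longest pyrimidine run of each stretch.
Rplp0: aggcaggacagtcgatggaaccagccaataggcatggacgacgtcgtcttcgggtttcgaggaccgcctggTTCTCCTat
Rps6: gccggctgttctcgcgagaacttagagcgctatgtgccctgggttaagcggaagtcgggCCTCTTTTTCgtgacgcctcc
Rps9: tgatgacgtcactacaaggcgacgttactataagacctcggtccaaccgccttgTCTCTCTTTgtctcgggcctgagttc
Rps16: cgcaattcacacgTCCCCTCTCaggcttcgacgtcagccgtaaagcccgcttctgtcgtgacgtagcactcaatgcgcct
Rpl31: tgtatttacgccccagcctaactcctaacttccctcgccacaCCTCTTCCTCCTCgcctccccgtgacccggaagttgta

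In Rps6, Rps9 and Rpl31 the run lies at or a few bases before the annotated start, in Rps16 it lies well before it, and Rplp0 has only a shorter run just after it. A second set compares Rpl22, which was called, with its paralog Rpl22l1 and with Rpl7l1, which were not. They are Rpl22 at chr4:152325666-152325745 (plus strand), Rpl22l1 at chr3:28805448-28805527 (plus strand) and Rpl7l1 at chr17:46782637-46782716 (minus strand).
Rpl22: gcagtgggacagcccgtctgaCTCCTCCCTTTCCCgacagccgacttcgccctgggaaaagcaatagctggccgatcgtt
Rpl22l1: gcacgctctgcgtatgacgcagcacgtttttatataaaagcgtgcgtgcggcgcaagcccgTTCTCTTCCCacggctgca
Rpl7l1: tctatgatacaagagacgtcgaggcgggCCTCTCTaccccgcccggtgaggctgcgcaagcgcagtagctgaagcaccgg
A pyrimidine run is as long in Rpl22l1 as in Rps6, so its presence does not separate called from uncalled genes here, and Rpl22l1 alone of these 8 stretches holds the letters TATAAA.

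Other motifs were searched on both strands of the whole 300-base window, and a match is a description, not a binding site. The letters CCGGAA, the core bound by ETS factors, were in 26 of 50 members (52%), against 16.7% of all genes and 20.9% of protein-coding genes. GGGCGG was in 58% of members, against 38.2% and 49.2%, AAGATGG in 16%, against 7.28% and 7.18%, and TATAAA in 14%, against 15.7% and 14.8%. The median GC content was 56.4% in members, against 52.8% in all genes and 56.3% in protein-coding genes.

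The stalk is a flexible arm of the large subunit that brings in translation factors. Of its 2 measured proteins Rplp0 fell in both conditions and Rplp1 in vehicle pools. Rplp0, the scaffold of the stalk, had log2 signals of 8.03, 8.24, 7.90, 8.30 and 9.89 in odor GFP+ arrays 1 to 5, against 9.26, 8.43, 9.24, 9.96 and 12.11 in odor GFP- arrays. In vehicle pools it had 7.78, 6.96, 8.11, 7.86 and 10.67 in GFP+ arrays, against 8.82, 10.36, 10.00, 9.94 and 11.64 in GFP- arrays. The groups overlapped only through the bright arrays of replicate 5, and GFP+ was the lower fraction in each of the 10 pools. By limma its log2 change was -1.33 ± 0.35 (SE, 5 pools, adjusted p = 0.0309) in odor pools and -1.87 ± 0.35 (adjusted p = 0.00257) in vehicle pools. The odor call was lost without odor pool 1, 3, 4 or 5, with adjusted p of 0.0857, 0.0977, 0.125 and 0.158 by limma.

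Rplp1, an acidic stalk protein that docks on this scaffold, had 13.54, 13.58, 12.94, 13.47 and 14.62 in odor GFP+ arrays, against 14.30, 14.34, 13.54, 13.46 and 15.39 in odor GFP- arrays. Vehicle arrays read 13.06, 13.56, 13.05, 12.99 and 14.42 in GFP+ arrays, against 15.04, 14.12, 14.77, 14.29 and 14.73 in GFP- arrays. All vehicle pools and 4 of 5 odor pools were lower in GFP+, and the arrays of replicate 5 alone made the vehicle groups overlap. The change was -1.17 ± 0.26 (SE, adjusted p = 0.00849 by limma) in vehicle pools and -0.58 (adjusted p = 0.282) in odor pools, so only the first passed. The difference between conditions was 0.60, with a 95% interval of -0.19 to 1.38 that includes zero.

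Of the 22 small-subunit genes, 4 fell in odor pools and 10 in vehicle pools, and all 22 had changes below zero in both. Their median log2 change was -0.62 in odor pools and -1.06 in vehicle pools. Rps20, a protein of the small-subunit head, gave the smallest p of all members in both conditions. Its signals were 8.86, 8.99, 8.16, 8.60 and 9.90 in odor GFP+ arrays, against 10.22, 10.50, 9.17, 9.44 and 11.17 in odor GFP- arrays. In vehicle pools they were 9.41, 8.90, 8.44, 8.34 and 11.09 in GFP+ arrays, against 11.36, 10.13, 9.84, 10.03 and 11.81 in GFP- arrays. Within pools the fractions never crossed, with differences from -1.52 to -0.84 in odor pools and from -1.95 to -0.72 in vehicle pools. The change was -1.20 ± 0.21 (SE, adjusted p = 0.00198 by limma) in odor pools and -1.39 ± 0.21 (adjusted p = 0.000504) in vehicle pools, and both calls held whichever single pool was left out. By limma they were lost without the pairing, at adjusted p of 0.428 and 0.202.

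Rps16, whose tail reaches the transfer RNA in the decoding site, had 10.63, 10.79, 9.78, 10.37 and 11.21 in odor GFP+ arrays, against 11.00, 12.59, 11.11, 11.25 and 12.26 in odor GFP- arrays. For vehicle the signals were 10.22, 10.57, 9.79, 10.14 and 11.13 in GFP+ arrays, against 12.65, 11.62, 12.36, 11.94 and 12.00 in GFP- arrays. Here the vehicle groups did not overlap, replicate 5 included. It fell by 1.74 ± 0.28 on the log2 scale (SE, adjusted p = 0.000934 by limma) in vehicle pools, to 29.9% of the GFP- level. In odor pools it fell by 1.08 (adjusted p = 0.0309), a call lost without odor pool 2, 3, 4 or 5 (adjusted p = 0.145, 0.122, 0.0752 and 0.094).

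Rps28, a small protein near the messenger RNA exit, had 9.24, 9.81, 8.91, 8.55 and 9.61 in odor GFP+ arrays, against 10.54, 11.42, 9.26, 10.26 and 11.20 in odor GFP- arrays. In vehicle-treated mice it had 9.47, 9.74, 9.16, 8.89 and 9.88 in GFP+ arrays, against 12.13, 10.44, 10.34, 10.01 and 10.86 in GFP- arrays, with no overlap. Its change was nearly equal in the 2 conditions, at -1.31 ± 0.29 (SE, adjusted p = 0.00964 by limma) in odor pools and -1.33 ± 0.29 (adjusted p = 0.00793) in vehicle pools. The difference between them was 0.01, with a 95% interval of -0.86 to 0.89. The odor call was lost without odor pool 4 or 5 (adjusted p = 0.0537 and 0.0501).

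Rps7, a small-subunit protein that also binds the p53 regulator MDM2, fell by 0.80 in odor pools (adjusted p = 0.0406 by limma) and by 1.09 in vehicle pools (adjusted p = 0.00495). Its signals were 13.07, 13.28, 11.94, 12.60 and 13.43 in odor GFP+ arrays and 13.47, 13.82, 13.31, 13.52 and 14.21 in odor GFP- arrays. In vehicle pools they were 12.90, 12.92, 12.68, 12.36 and 13.83 in GFP+ arrays and 14.05, 13.77, 14.34, 13.69 and 14.29 in GFP- arrays. Every pool was lower in GFP+, but leaving out any 1 of the 5 odor pools, or vehicle pool 4, ended the odor call (adjusted p from 0.0549 to 0.203).

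Rps6 encodes a protein that the S6 kinases phosphorylate, and the phosphorylated form is used as a sign of recent neuronal activity. The array reads the mRNA, not that form. Rps6 was called in vehicle pools only. It had 14.54, 14.83, 14.01, 14.46 and 15.06 in odor GFP+ arrays, against 14.85, 15.01, 15.32, 15.12 and 15.73 in odor GFP- arrays. Under vehicle it had 14.06, 13.78, 14.21, 13.96 and 15.37 in GFP+ arrays, against 14.80, 15.24, 15.55, 15.62 and 15.82 in GFP- arrays. All 10 pools were lower in GFP+, and replicate 5 made the vehicle groups overlap. The change was -0.63 (adjusted p = 0.168 by limma) in odor pools and -1.13 ± 0.23 (SE, adjusted p = 0.00571) in vehicle pools. The difference between conditions was 0.51, with a 95% interval of -0.21 to 1.22 that includes zero.

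Rps9, a protein of the small-subunit body, had 9.36, 9.85, 9.41, 9.52 and 11.82 in odor GFP+ arrays, against 9.80, 9.71, 10.08, 10.74 and 13.41 in odor GFP- arrays. Vehicle samples had 9.30, 7.94, 9.36, 8.87 and 12.25 in GFP+ arrays, against 10.43, 10.81, 10.74, 11.19 and 13.13 in GFP- arrays. The arrays of replicate 5 stand above the rest in every group, while the difference within pool 5 was below zero in both conditions. Its change was -0.76 (adjusted p = 0.235 by limma) in odor pools and -1.72 ± 0.31 (SE, adjusted p = 0.00232) in vehicle pools. Rpsa, a small-subunit protein also known as a laminin receptor, was called in neither. It had 11.57, 11.58, 10.67, 10.80 and 12.15 in odor GFP+ arrays, against 11.38, 11.55, 11.55, 12.02 and 12.82 in odor GFP- arrays (change -0.51, adjusted p = 0.321 by limma). In vehicle pools it had 11.43, 10.93, 11.24, 11.21 and 12.14 in GFP+ arrays, against 11.71, 11.73, 12.20, 11.41 and 13.08 in GFP- arrays (change -0.64, adjusted p = 0.149). Also called in vehicle pools were Rps3a1 (-0.89), Rps15a (-1.31), Rps23 (-0.88) and Rps21, which is taken up below.

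**Figure D4:**
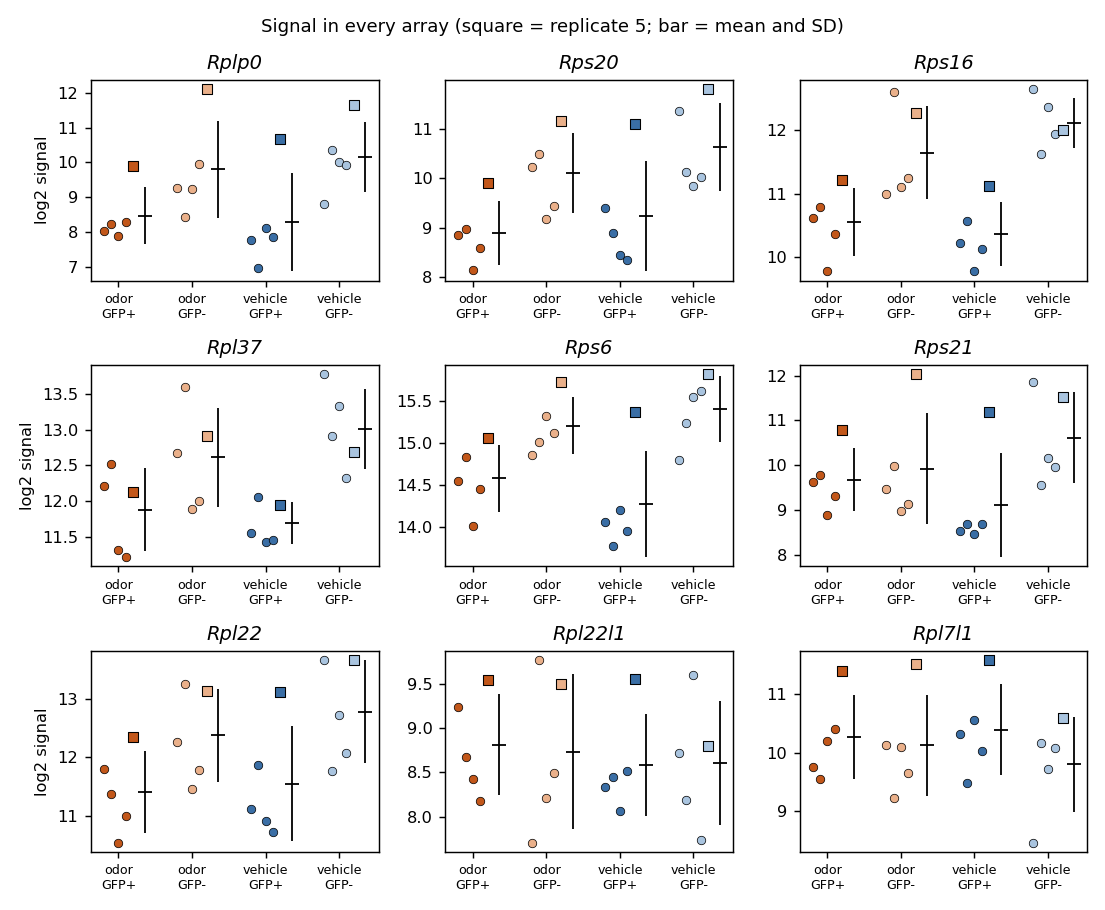
Log2 signal of 9 ribosomal protein genes (vertical axis) on every array of the 4 groups (horizontal axis); circles are replicates 1 to 4, squares replicate 5, and bars the mean and SD of 5. Rps16 and Rpl37 separate vehicle GFP+ from vehicle GFP- arrays completely, while Rpl22l1 and Rpl7l1 overlap in both conditions.

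Of the 32 large-subunit genes 11 fell in vehicle pools. In odor pools limma called none of them, with 6 at an unadjusted p under 0.05, against 3555 of all 22206 probe sets in either direction. All 32 changes were below zero in vehicle pools and 29 in odor pools, with medians of -0.42 in odor pools and -0.83 in vehicle pools. Rpl10a, part of the mobile L1 arm that guides the spent transfer RNA out, had 11.81, 11.65, 11.29, 11.53 and 12.84 in odor GFP+ arrays, against 12.17, 11.80, 11.35, 12.15 and 13.73 in odor GFP- arrays. Vehicle arrays read 10.99, 10.49, 11.40, 11.03 and 12.80 in GFP+ arrays, against 12.79, 12.19, 12.52, 12.27 and 13.24 in GFP- arrays. Apart from the replicate 5 arrays the vehicle groups were separate, while the odor groups overlapped. The change was -0.42 (adjusted p = 0.432 by limma) in odor pools and -1.26 ± 0.23 (SE, adjusted p = 0.00214) in vehicle pools.

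Rpl37, a zinc-binding protein of the large subunit, had 12.22, 12.52, 11.31, 11.21 and 12.13 in odor GFP+ arrays, against 12.67, 13.60, 11.88, 12.00 and 12.91 in odor GFP- arrays. For vehicle the signals were 11.55, 12.06, 11.43, 11.45 and 11.94 in GFP+ arrays, against 13.78, 12.91, 13.34, 12.33 and 12.69 in GFP- arrays. The vehicle groups did not overlap, and every odor pool was lower in GFP+. The change was -0.73 (adjusted p = 0.105 by limma) in odor pools and -1.32 ± 0.24 (SE, adjusted p = 0.00249) in vehicle pools.

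Rpl31, which lies at the exit of the peptide tunnel, had 13.17, 13.54, 12.64, 13.50 and 13.61 in odor GFP+ arrays, against 14.47, 14.04, 13.55, 13.58 and 14.61 in odor GFP- arrays. In vehicle-treated mice it had 12.73, 13.04, 12.81, 12.86 and 14.23 in GFP+ arrays, against 15.08, 13.65, 14.96, 14.40 and 14.58 in GFP- arrays. All pools were lower in GFP+, the vehicle groups crossing only at replicate 5. The change was -0.76 (adjusted p = 0.204 by limma) in odor pools and -1.40 ± 0.30 (SE, adjusted p = 0.00744) in vehicle pools. The other large-subunit genes called in vehicle pools were Rpl8 (-0.74), Rpl11 (-0.83), Rpl23 (-1.13), Rpl29 (-1.04), Rpl32 (-1.45) and Rpl36a (-1.16), with Rpl19 and Rpl22 below. In vehicle pools Rpl37a (-0.36) and Rpl4 (-0.39) lay nearest to zero among the genes other than the 7 paralogs and copies. In odor pools Rpl41 (0.08) and Rpl9 (0.09) were slightly above zero, and none of these passed.

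The 7 listed paralogs and copies stood apart by their median, though not in every gene or pool. In odor pool 1 their median difference was -0.39, against -0.20 over the other 56 genes. Rpl32l, a copy counted with the 56, changed by -0.50 in odor pools and -0.93 in vehicle pools. By limma 0 of the 7 were called in either condition, with 0 at an unadjusted p under 0.05, and their median log2 change was 0.14 in odor pools and 0.23 in vehicle pools, against -0.479 and -0.961 over the other 56 genes. Without Rpl3l and Rpl39l, whose signals lay below background, the median over the 5 left was 0.14 in odor pools and 0.25 in vehicle pools. All 56 were below zero in vehicle pools, and 53 of 56 in odor pools. Rpl22, an RNA-binding large-subunit protein that holds down its paralog Rpl22l1 in mouse cells, had 11.80, 11.38, 10.55, 11.00 and 12.35 in odor GFP+ arrays, against 12.26, 13.24, 11.46, 11.78 and 13.14 in odor GFP- arrays. Under vehicle it had 11.13, 11.87, 10.92, 10.74 and 13.12 in GFP+ arrays, against 13.65, 11.76, 12.73, 12.08 and 13.66 in GFP- arrays. It was lower in GFP+ in 9 of the 10 pools, with vehicle pool 2 the exception. Its change was -0.96 (adjusted p = 0.121 by limma) in odor pools and -1.22 (adjusted p = 0.0331) in vehicle pools. The vehicle call was lost without vehicle pool 1, 3 or 4 (adjusted p = 0.0928, 0.145 and 0.0967) and without odor pool 3 or 4 (adjusted p = 0.0526 and 0.0513).

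Rpl22l1 had 9.24, 8.67, 8.42, 8.18 and 9.55 in odor GFP+ arrays, against 7.71, 9.77, 8.21, 8.49 and 9.50 in odor GFP- arrays. Vehicle samples had 8.33, 8.44, 8.06, 8.52 and 9.56 in GFP+ arrays, against 8.72, 8.19, 9.60, 7.74 and 8.79 in GFP- arrays. The groups overlapped throughout, and its change was 0.08 (95% interval -0.73 to 0.89) in odor pools and -0.02 (-0.84 to 0.79) in vehicle pools. The intervals of Rpl22 itself, -1.68 to -0.25 in odor pools and -1.94 to -0.51 in vehicle pools, overlapped them. The difference between the 2 genes was not tested.

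Rpl7l1, a nucleolar relative of Rpl7, had 9.74, 9.55, 10.21, 10.41 and 11.41 in odor GFP+ arrays, against 10.14, 9.21, 10.10, 9.64 and 11.52 in odor GFP- arrays. In vehicle pools it had 10.31, 9.48, 10.56, 10.02 and 11.59 in GFP+ arrays, against 8.45, 10.16, 9.72, 10.08 and 10.59 in GFP- arrays. Vehicle pool 1 gave the widest gap, 1.87 higher in GFP+, and vehicle pool 2 ran the other way. Its changes of 0.14 in odor pools and 0.59 in vehicle pools did not pass (adjusted p = 0.918 and 0.366 by limma), nor did those of Rpl7 itself (-0.38 and -0.56, adjusted p = 0.555 and 0.263).

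Rps4l changed by 0.15 in odor pools and 0.29 in vehicle pools, and its X-linked partner Rps4x by -0.65 and -0.71, none past the threshold. Rps27l, a copy induced by p53, was at 0.57 in odor pools, higher in GFP+ in all 5 of them, and at 0.25 in vehicle pools (adjusted p = 0.609 and 0.848 by limma). Rpl10l, a copy known from testis, was at -0.46 and 0.07. Rpl39, a protein that lines the peptide tunnel, was at -0.73 and -1.43 (adjusted p = 0.633 and 0.172 by limma), and the vehicle value was -0.56 without vehicle pool 1, where the difference was -4.88. Without vehicle pool 2 its vehicle change was called, at -1.92 (adjusted p = 0.0432). Rpl3, which sits by the peptidyl transferase centre, was at -0.10 and -0.60. Their copies Rpl39l (-0.30 and 0.09) and Rpl3l (0.23 and 0.23), known from testis and muscle, gave signals below background. Array probe sets for such genes can also pick up near-identical copies, so a single gene's value is uncertain to that degree.

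Whether odor changed the sort was tested as the difference of the 2 sort effects, odor pools minus vehicle pools. No member and no other probe set passed (0% of all), and 4 of 63 members had an unadjusted p under 0.05 (6.35%, against 1.21% of all probe sets). The difference was above zero in 57 of 63 genes (51.2% of all probe sets), with a median of 0.392 over members and 0.009 over all. A positive value means that the GFP+ deficit was smaller in odor pools. Those 4 genes all had an adjusted p of 1.00 by limma.

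Rps21, a small-subunit protein, showed the widest difference, at 1.26 (95% interval 0.17 to 2.34, unadjusted p = 0.0266). It had 9.64, 9.79, 8.88, 9.31 and 10.79 in odor GFP+ arrays, against 9.47, 9.99, 8.99, 9.13 and 12.03 in odor GFP- arrays. Vehicle arrays read 8.54, 8.69, 8.46, 8.70 and 11.18 in GFP+ arrays, against 11.86, 9.56, 10.16, 9.97 and 11.51 in GFP- arrays. The odor fractions lay within 0.20 of each other in 4 of 5 pools, while all 5 vehicle pools were lower in GFP+. It fell by 1.50 in vehicle pools (adjusted p = 0.0148 by limma), a call lost without vehicle pool 3 (adjusted p = 0.061), and was at -0.24 in odor pools (adjusted p = 0.862).

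Rpl19, which reaches across to the small subunit, had 12.51, 12.74, 11.60, 13.09 and 13.82 in odor GFP+ arrays, against 12.41, 13.33, 11.69, 12.56 and 14.43 in odor GFP- arrays. For vehicle the signals were 12.03, 12.48, 11.89, 11.96 and 14.30 in GFP+ arrays, against 14.02, 12.86, 12.89, 13.22 and 14.63 in GFP- arrays. All vehicle pools and 3 of 5 odor pools were lower in GFP+. It fell in vehicle pools by 0.99 (adjusted p = 0.0302 by limma), and not without vehicle pool 1, 3 or 4 (adjusted p = 0.0855, 0.0894 and 0.105). Its difference between conditions was 0.86 (0.05 to 1.67, unadjusted p = 0.0388), that of Rpl10a 0.84 (0.15 to 1.54, unadjusted p = 0.0212) and that of Rps9 0.96 (unadjusted p = 0.0494).

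Odor was also set against vehicle within each fraction. In GFP+ cells the median odor minus vehicle change of the members was 0.09 (0.03 over all probe sets), from -0.34 for Rps20 to 0.66 for Rps14. No member was called (0% of all probe sets) and none had an unadjusted p under 0.05 (0.275% of all probe sets). In GFP- cells the median was -0.31 (0.02 over all probe sets), from -0.78 for Rpl35 to 0.48 for Rpl10l, with 55 of 63 below zero. Again none was called (0% of all probe sets) or reached an unadjusted p under 0.05 (0.135% of all probe sets). Odor and vehicle arrays share replicate numbers, and with the number as a block 0 members were called in either fraction, with 2 members at an unadjusted p under 0.05 in GFP+ cells (3.69% of all probe sets) and 0 in GFP- cells (0.856%). Vehicle GFP- replicate 1 had both the highest member median (13.42) and the lowest correlation with its group, and without it the median change in GFP- cells was -0.21. Leaving out each array in turn gave -0.48 to -0.20 in GFP- cells and -0.04 to 0.26 in GFP+ cells, with all 4 ends set by a replicate 5 array.

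The gene order of the sort effect was similar in both conditions, which share no arrays. Across the 63 genes the log2 changes in odor and vehicle pools correlated with r = 0.748 and rho = 0.719, and across the 56 genes other than paralogs and copies with r = 0.666. Genes are not independent replicates, and the points share the array design and the paired sorting. Over all 22206 probe sets r was 0.929 and rho 0.661.

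Genes around the ribosome were counted from lists of their own. Fau, whose product carries small-subunit protein eS30, fell in vehicle pools by 1.13 (adjusted p = 0.0256 by limma) and was at -0.29 in odor pools. Rpl36al, a second form of Rpl36a, was at -0.07 in odor pools and -0.41 in vehicle pools (adjusted p = 0.965 and 0.531 by limma). The 76 mitochondrial ribosomal proteins, which serve the separate ribosome of that organelle, had a median of 0.39 in odor pools, where Mrps11 rose (0.75, adjusted p = 0.0267) and none fell, and of 0.23 in vehicle pools, where none was called. At an unadjusted p under 0.05, 19 of the 76 were higher in GFP+ in odor pools and 7 in vehicle pools, and 0 were lower. Of all 22206 probe sets 3555 in odor pools and 4026 in vehicle pools had such a p by limma, in either direction. None of 23 ribosome biogenesis genes and none of 13 genes of RNA polymerase I, the enzyme for ribosomal RNA, was called by limma in either condition. At an unadjusted p under 0.05 were 2 biogenesis genes in each condition, and 0 polymerase genes in odor pools and 1 in vehicle pools. Their medians were 0.13 and 0.15 in odor pools, and 0.19 and 0.25 in vehicle pools. Among these, Npm1, the nucleolar chaperone nucleophosmin, was at -0.64 in odor pools and -0.57 in vehicle pools.

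Translation elongation factors carry the ribosome along the mRNA. Of 7 such genes none was called in odor pools (1 at an unadjusted p under 0.05) and 2 fell in vehicle pools, with medians of -0.21 in odor pools and -0.49 in vehicle pools. Eef1b2 and Eef1g, subunits of the complex that recharges the elongation factor eEF1A, fell in vehicle pools by 1.53 (adjusted p = 0.000899 by limma) and 0.78 (adjusted p = 0.0465), and were at -0.82 and -0.46 in odor pools. Eef1a2, the form of eEF1A typical of neurons and muscle, was at 0.52 in odor pools and 0.81 in vehicle pools, and Eef1a1, the general form, at -0.21 and -0.49, with neither called. Of 22 initiation factors none was called in either condition, with 1 at an unadjusted p under 0.05 in odor pools and 0 in vehicle pools (medians 0.09 and 0.03).

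Of 7 other genes with a 5' terminal oligopyrimidine mRNA only Vim was called, and it fell by 3.44 in odor pools and fell by 3.87 in vehicle pools. Vim encodes vimentin, an intermediate filament of non-neuronal and immature cells. The others included Pabpc1, the poly(A)-binding protein, at -1.16 in odor pools and -0.97 in vehicle pools, and Tpt1 at -0.46 and -0.80, none past the threshold. Of 14 genes of mTOR signalling and its control of such mRNAs none was called in odor pools, and 0 had an unadjusted p under 0.05. In vehicle pools Eif4ebp1, a repressor of cap-dependent translation that mTOR inactivates, fell by 0.73 (adjusted p = 0.0448 by limma), and Rheb, the activator of mTOR, was at 0.56 (adjusted p = 0.0968).

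**Figure D5:**
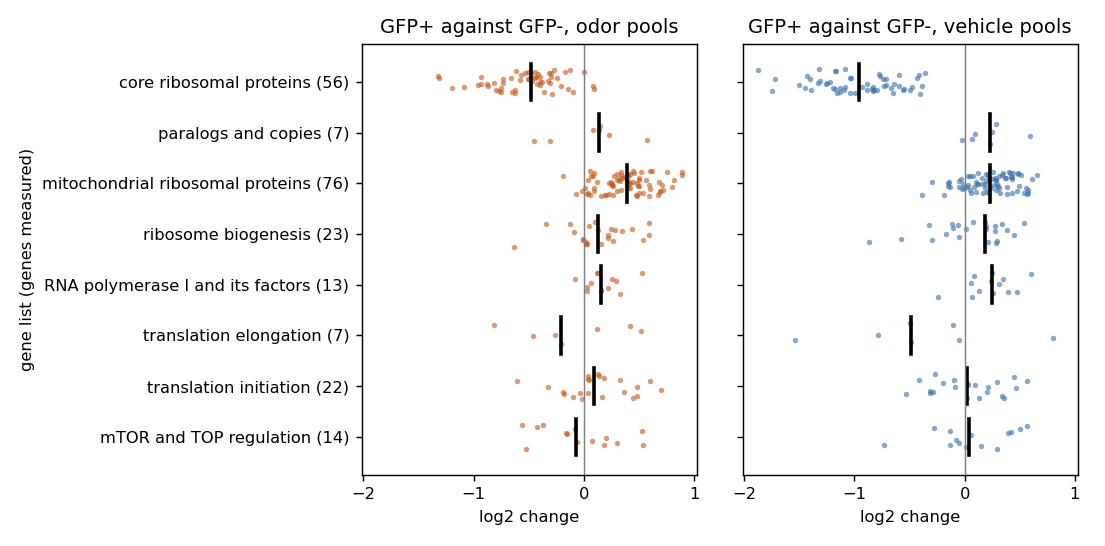
Log2 change GFP+ minus GFP- (horizontal axis) of each measured gene, by list (vertical axis, with the number of genes measured), in odor pools on the left and vehicle pools on the right; bars are list medians. The 56 ribosomal proteins other than paralogs and copies have medians of -0.479 in odor pools and -0.961 in vehicle pools, while the mitochondrial ribosomal proteins have 0.39 and 0.23.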

How the data were processed

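Gene expression was measured with Affymetrix Clariom S mouse arrays in 20 samples, 5 in each of 4 groups. Per the submitters' processing notes the authors used Affymetrix Expression Console, with no version or settings stated in the sources used here. What the authors deposited are log2 signals, 1 for each probe set (judged by their range), and nothing more was done to normalize them. Of 28846 rows, 6640 controls were left out, and all 22206 gene probe sets were tested, dim ones included: 19572 with 1 symbol and 2634 with none. All 63 member genes matched RefSeq by Entrez gene ID, and none had several probe sets.

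Tests were fitted by lmFit and eBayes of limma 3.58.1 (R 4.3.3), and p-values were adjusted by Benjamini-Hochberg over all 22206 probe sets, with 0.05 as threshold. Differences GFP+ minus GFP- within the 10 pools entered 1 fit, with coefficients for odor pools and vehicle pools and their difference. The comparison of odor with vehicle used the 10 samples of a fraction and no block. The labels give fractions of 1 condition and number the same mice, and the pairing by pool rests on them. Deviations from the group means correlated between the fractions at 0.26, 0.53, 0.33, 0.22 and 0.80 in odor pools 1 to 5. In vehicle pools 1 to 5 they correlated at -0.005, -0.32, 0.17, 0.096 and 0.80. Vehicle pools 1, 2 and 4 were thus below 0.1, the limit set for pairing. The GFP+ arrays of vehicle pools 1 to 4 correlated more with a GFP- array of another number, at 0.30, 0.72, 0.38 and 0.30. So did that of odor pool 1, at 0.56. The labels do not say what a shared number means between odor and vehicle. Between odor and vehicle, same-numbered deviations correlated at 0.25, 0.52, 0.35, 0.16 and 0.86 in GFP+ cells, all above the limit of 0.1. GFP+ numbers 1 and 4 correlated more with another number, at 0.56 and 0.26. In GFP- cells the values were 0.14, -0.38, 0.28, 0.20 and 0.84. The main comparison paired odor with vehicle samples in neither fraction, and the number as a block was run as an alternative. No 2 arrays shared more than 0.00901% of values. The number of arrays limits the precision.

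Members and lists were chosen with earlier results of these data known. Named with values on every array were the stalk proteins, Rpsa, Rps6, the 10 members with the smallest p in vehicle pools, up to 3 with the highest change there, and the 3 with the smallest p for the difference between conditions; paralogs are given with their partners, some by change only. Other lists give counts, medians and up to 4 members. Rps14 and Rpl35, the ends of a range, and Rpl4, Rpl9, Rpl37a and Rpl41, near zero, were named after their values were seen. Promoter sequences are RefSeq's (GRCm38.p6). The code was tested on simulated data. Alternatives were quantile normalization, median centring, leaving out the dimmest 25%, an intensity trend, array weights, leaving out both pools numbered 5 or each replicate, the pairing or block, replicate 5 as a term and, chosen after seeing the data, leaving out 3 pools with an array of low correlation.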

Additional observations from a re-analysis of the deposited data

Results flagged for a closer look

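Values far from the other 4 of their group were found in 15 of 162 groups of named members, or 9.26%, where chance gives about 1 in 20. In each, the gap to the nearest value was over 0.71 of the whole range. Most were arrays of replicate 5, which were brighter as a whole. In odor GFP+ cells replicate 5 had 9.89 for Rplp0 (others 7.90 to 8.30) and 11.82 for Rps9 (9.36 to 9.85). In odor GFP- cells it had 13.41 for Rps9 (9.71 to 10.74) and 14.91 for Rpl7 (13.62 to 13.92). In vehicle GFP+ cells it had 15.37 for Rps6 (13.78 to 14.21), 14.23 for Rpl31 (12.73 to 13.04), 11.18 for Rps21 (8.46 to 8.70) and 14.30 for Rpl19 (11.89 to 12.48). In vehicle GFP- cells it had 13.13 for Rps9 (10.43 to 11.19) and 8.09 for Rpl10l (6.45 to 6.87).

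Outside replicate 5, Rpl39 was at 14.83 on vehicle GFP- replicate 1, against 10.95 to 11.85 on the other vehicle GFP- arrays. Among differences within pools, Rplp1 was at 0.016 in odor pool 4 (others -0.77 to -0.60), Rps21 at -1.24 in odor pool 5 (-0.20 to 0.17), Rpl39 at -1.68 in odor pool 2 (-0.70 to -0.35) and Rps28 at -2.67 in vehicle pool 1 (-1.17 to -0.70). No member met the test of a difference between odor and vehicle pools.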

How the results depend on the processing

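The count of members that fell depended on the processing, while the median change kept its sign in both sorts under every alternative run. In odor pools (5 members called) the count was 2 with each array centred on its median (4.75% of all probe sets fell), 18 with array weights (8.89%), 1 with both pools numbered 5 left out (4.1%) and 0 with no replicate block (3.8%), that is without the pairing of fractions by pool. Leaving out 1 replicate at a time gave 1 to 8 members, with medians from -0.57 to -0.40. In vehicle pools (23 called) the count was 14 with centring (5.45%) and 5 with no replicate block (4.41%), and 13 to 30 when 1 replicate was left out, with medians from -0.98 to -0.73. The cause of these shifts was not tested. Centring moved the median of all probe sets to 0.29 in odor pools (0.08 as deposited) and 0.33 in vehicle pools (0.09), and the odor median of members to -0.236. Relative to all probe sets the members were at -0.53 in odor pools and -0.93 in vehicle pools, which centring cannot alter. The share of all calls that were higher in GFP+ was 26.3% in odor pools as deposited and 43.3% with centring, and 24.8% and 49.1% in vehicle pools. Without the 3 pools holding an array of low correlation, chosen after seeing the data, 6 members fell in odor pools (7.15% of all probe sets) and 23 in vehicle pools (7.59%). The difference between conditions had 0 members called under each alternative, with medians of 0.24 to 0.51 without 1 replicate, and so had odor against vehicle in either fraction, also with the replicate block. Of the named genes' values, 30 lost the call in odor pools and 27 in vehicle pools over all alternatives, 13 and 2 gained it, and none changed direction while called. Genes of the other lists were not rerun under the alternatives. Averaging probe sets per gene could not give another value, since each member has 1. Without detection calls, signals near background have no lower limit here.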
